A study of Homo sapiens with 6 samples.

Results

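The transcripts described here are 10 genes of the hypoxia response: the oxygen-regulated factors HIF1A and EPAS1 and the target genes VEGFA, ADM, NDRG1, BNIP3, EGLN3, ANKRD37, P4HA1 and PDK1. They were chosen by symbol, as all probe sets naming exactly 1 of these genes, and comprise 10 of 18656 measured genes and 132 of 224320 probe sets. AGS, an established human gastric adenocarcinoma line, was transfected by lipid carrier with an inhibitor of the microRNA miR-25-3p (3 arrays) or with a non-targeting control RNA (3 arrays). The transfection was repeated after 24 h, and total RNA was taken at 48 h, with 500 ng per sample labelled for hybridization. No low-oxygen condition is labelled, so all values belong to cultures for which no oxygen level is given. All arrays come from 1 cell line.

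Cells sense oxygen through the alpha subunits of the hypoxia-inducible factors, of which HIF1A and EPAS1 (HIF-2 alpha) are the main forms. In the presence of oxygen, prolyl hydroxylases of the EGLN family mark these proteins for ubiquitination by the VHL complex. When oxygen falls, the alpha subunits persist, pair with ARNT and bind a short core sequence near genes of blood vessel growth, glycolysis, mitochondrial turnover and matrix processing. Much of this regulation acts on protein, which an expression array does not measure. MicroRNAs lower many messages by pairing through the seed, bases 2 to 8 from the 5′ end.

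The inhibitor is directed at the mature microRNA below, shown because it defines the treatment, with the seed in capitals (RefSeq, GRCh38.p14, chr7:100093571-100093592, minus strand).
miR-25-3p: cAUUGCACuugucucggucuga
The same seed, AUUGCAC, is carried in that table by miR-32-5p, miR-92a-3p, miR-92b-3p, miR-363-3p and miR-367-3p. All of these differ from miR-25-3p only outside the seed, and miR-92a-3p is shown as an example.
miR-92a-3p: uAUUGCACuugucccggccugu
The mature microRNAs were not measured.

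RefSeq promoter sequences (GRCh38.p14) were matched for 8 of the 10 members, all but NDRG1 and VEGFA. These members had 10 windows, as HIF1A and PDK1 each had more than 1 start. The 250 bases before each start were searched on both strands for the core letters of a HIF binding site, first as ACGTG and then as GCGTG. The former was found in 1 window each of 4 members (ANKRD37, BNIP3, P4HA1 and PDK1), among the 10 member windows. Over all 35116 windows of the same length the share was 18.5%. The latter was found in 1 window each of 4 members (ADM, BNIP3, EPAS1 and HIF1A), among the same 10, against 32.2% of all windows. The windows of ANKRD37 (chr4:185396591-185396840, plus strand) and P4HA1 (chr10:73096867-73097116, minus strand) are shown as examples of windows that hold the former motif. Capitals mark that motif on either strand, and 2 matches overlap at the first marked place of ANKRD37.
ANKRD37: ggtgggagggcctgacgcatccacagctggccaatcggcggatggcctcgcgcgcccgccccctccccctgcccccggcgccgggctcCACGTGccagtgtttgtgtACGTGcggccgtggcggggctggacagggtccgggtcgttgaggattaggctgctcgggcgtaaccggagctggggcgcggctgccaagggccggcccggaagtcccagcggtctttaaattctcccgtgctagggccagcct
P4HA1: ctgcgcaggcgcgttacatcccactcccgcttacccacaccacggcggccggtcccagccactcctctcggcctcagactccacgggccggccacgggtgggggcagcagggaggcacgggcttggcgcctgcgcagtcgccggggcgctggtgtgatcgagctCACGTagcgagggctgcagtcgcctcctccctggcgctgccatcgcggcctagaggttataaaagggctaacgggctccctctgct
A match describes the letters only, and binding was not measured in these samples.

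The labelled cell type was checked on marker genes. Epithelial markers had list means of 9.27 to 9.34 on the log2 scale in control and 9.25 to 9.36 in inhibitor arrays, with KRT8 the brightest at up to 12.05. KRT20, named after its value was seen, was the dimmest of this list, at 4.98 to 5.40 over all arrays. Fibroblast markers lay at 4.14 to 4.35 and 4.19 to 4.31 (brightest COL1A1, up to 6.45), endothelial markers at 3.74 to 3.94 and 3.73 to 3.80 (brightest CLDN5, up to 5.63), and the 5 measured leukocyte markers at 4.12 to 4.32 and 4.30 to 4.37 (brightest CD68, up to 6.18). PECAM1 was lower and CD14 higher at an unadjusted p under 0.05 in limma, both named after their values were seen. Control replicate 1 stood furthest from the other arrays, with a mean correlation of 0.9915 across genes against 0.9933 to 0.9938 for the other 5, and values without it are given where it moved a result.

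NDRG1 had the largest difference of the 10 genes, with less message in 2 of the 3 inhibitor arrays, and EPAS1 had a small difference without overlap of arrays. The other 8 genes lay between -0.21 and 0.071. No member was called: limma gave 0 of 10 at an adjusted p under 0.05 (background 0.0% of all genes), with adjusted p from 0.79 to 0.99 over the members. NDRG1 was the 1 member lower at an unadjusted p under 0.05 (background 3.16%), and 0 were higher (background 2.95%). All inhibitor arrays lay below all controls for 1 member (background 7.68%) and above them for 0 (background 5.19%). By sign, 6 members were negative and 4 positive, against 49.5% negative over all genes. The median difference, inhibitor minus control, was -0.049 for the members and 0.0021 for all genes, and the median absolute difference was 0.064 and 0.091. In bulk RNA, less message per cell and fewer cells carrying it cannot be told apart.

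**Figure D1:**
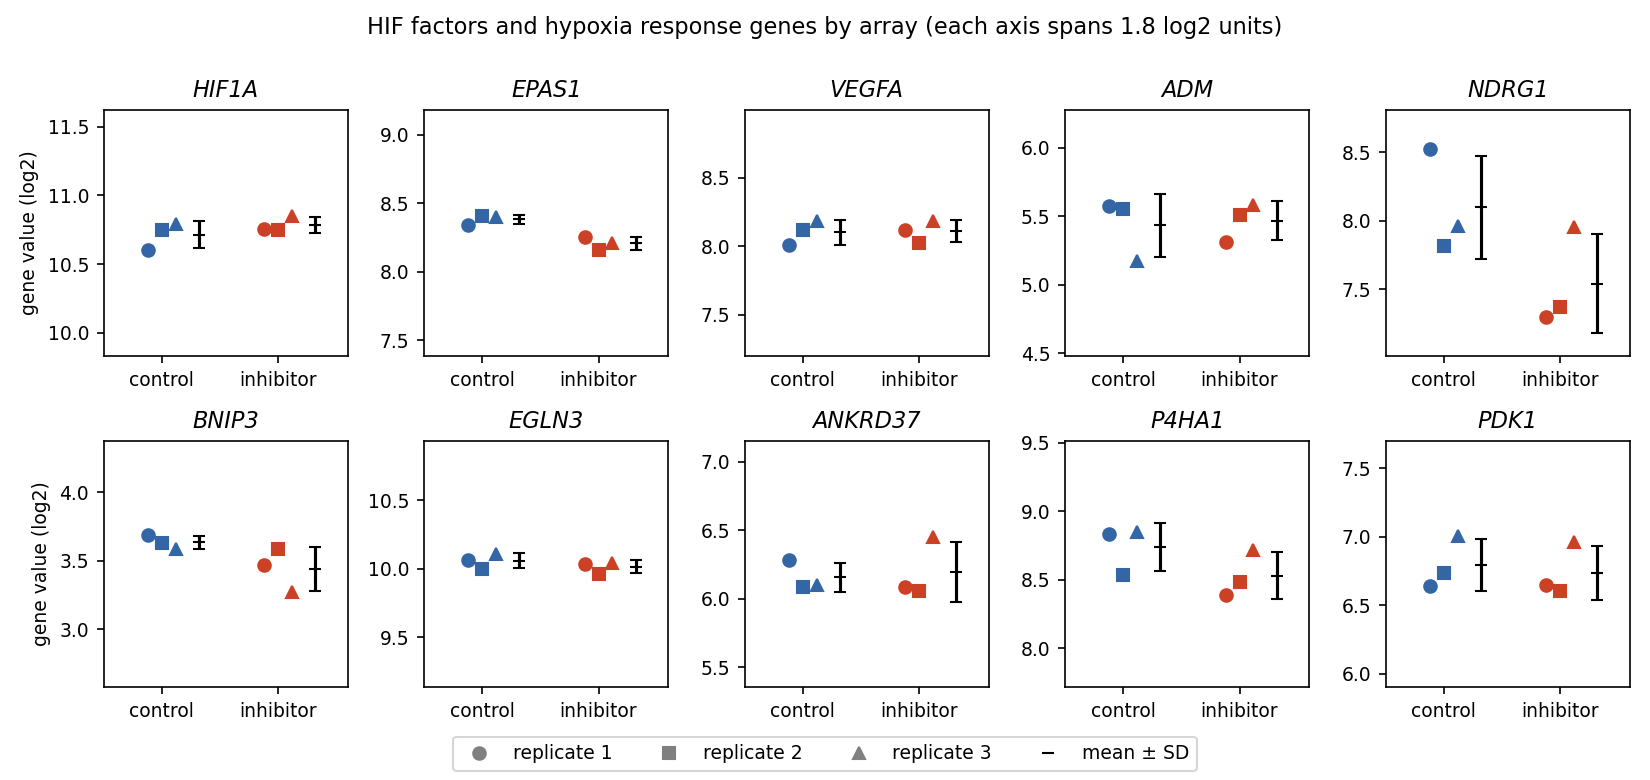
Gene value (log2, mean of the probe sets) of each of the 10 genes on each array, with controls in blue, inhibitor arrays in red, replicate numbers as symbols, and the mean ± SD in black. EPAS1 is the 1 gene whose groups do not overlap, and NDRG1 has inhibitor replicates 1 and 2 (7.30 and 7.37) below all controls.

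Of the factors themselves, HIF1A, the broadly expressed alpha subunit, was at 10.60, 10.75 and 10.79 on the log2 scale in control replicates 1 to 3 and at 10.76, 10.75 and 10.85 in inhibitor replicates 1 to 3. The groups overlapped, with control replicate 1 lowest and inhibitor replicate 3 highest. The difference was 0.071 (SE 0.092, 95% interval -0.14 to 0.28, adjusted p 0.89 in limma). It was 0.016 without control replicate 1, 0.21 (unadjusted p 0.068) with the brightest probe set and -0.042 with the median of the probe sets. Its 18 probe sets did not move alike: 4 had all inhibitor arrays above all controls (background 5.89% of probe sets) and 2 had all of them below (background 6.32%). The largest probe set difference was 0.51, from 8.73, 8.92 and 8.89 in control replicates 1 to 3 to 9.24, 9.23 and 9.59 in inhibitor replicates 1 to 3. The most negative was -0.35, from 11.32, 11.12 and 11.25 to 11.08, 10.77 and 10.79. Neither passed the threshold, with adjusted p of 0.80 and 0.81 over all probe sets.

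EPAS1, the alpha subunit of HIF-2, was at 8.34, 8.41 and 8.40 in control replicates 1 to 3 and at 8.26, 8.16 and 8.21 in inhibitor replicates 1 to 3. All 3 inhibitor arrays lay below all 3 controls, as they did for 7.68% of all genes. The difference was -0.18 (SE 0.083, 95% interval -0.37 to 0.013, unadjusted p 0.065, adjusted p 0.79 in limma), or 0.89 times the control level. It did not rest on control replicate 1, without which it was -0.20 (SE 0.085). Of its 21 probe sets, 16 were negative and 5 positive, 6 had all inhibitor arrays below all controls (background 6.32%), and 0 had all above (background 5.89%). The difference was 0.0000 when the median of the probe sets was used in place of their mean.

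EGLN3, a prolyl hydroxylase that marks HIF alpha proteins and is itself a HIF target, was at 10.07, 9.999 and 10.11 in control replicates 1 to 3 and at 10.04, 9.96 and 10.05 in inhibitor replicates 1 to 3. The groups overlapped, and the arrays of each lay within 0.11 and 0.081 of each other. The difference was -0.042 (SE 0.085, 95% interval -0.23 to 0.15). Its 8 probe sets were split, 5 negative and 3 positive.

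Among the secreted products, VEGFA, the main growth factor of blood vessels, was at 8.01, 8.12 and 8.19 in control replicates 1 to 3 and at 8.12, 8.02 and 8.19 in inhibitor replicates 1 to 3. The groups covered nearly the same range, and the difference was 0.0060 (SE 0.093, 95% interval -0.21 to 0.22). Its sign turned to -0.042 without control replicate 1, and it was 0.22 (unadjusted p 0.080) with the median of the probe sets. Of its 16 probe sets, 1 had all inhibitor arrays above all controls (background 5.89% of probe sets), going from 8.22, 8.0 and 8.18 to 8.32, 8.49 and 8.61.

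ADM encodes adrenomedullin, a peptide that widens blood vessels. It was at 5.57, 5.56 and 5.17 in control replicates 1 to 3 and at 5.31, 5.51 and 5.59 in inhibitor replicates 1 to 3, so 1 low array in each group set the spread. The difference was 0.036 (SE 0.13, 95% interval -0.26 to 0.34), and 0.11 without control replicate 1. Its 5 probe sets ranged from -0.68 to 0.74. The brightest probe set alone gave -0.23, so no direction can be given for ADM.

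NDRG1, a stress-responsive gene induced by low oxygen in many epithelial lines, was at 8.52, 7.81 and 7.96 in control replicates 1 to 3 and at 7.30, 7.37 and 7.95 in inhibitor replicates 1 to 3. Control replicate 1 was the highest array, inhibitor replicates 1 and 2 were the lowest, and inhibitor replicate 3 lay between control replicates 2 and 3. The difference was -0.56 (SE 0.22, 95% interval -1.06 to -0.058, unadjusted p 0.033, adjusted p 0.79 in limma), or 0.68 times the control level. A difference as low or lower was found for 37 of 18656 genes (0.198%), NDRG1 included. That rank takes no account of the spread between arrays. By unadjusted p in limma, NDRG1 was among the 3.16% of genes lower at p under 0.05. All 18 of its probe sets were negative, from -1.13 to -0.15, and 2 had all inhibitor arrays below all controls (background 6.32% of probe sets). The most negative went from 9.72, 8.65 and 9.0 in control replicates 1 to 3 to 7.86, 7.72 and 8.41 in inhibitor replicates 1 to 3. Control replicate 1 was the highest control for 17 of the 18, and inhibitor replicate 3 the highest inhibitor array for 16. Without control replicate 1 the difference was -0.35 (SE 0.20, unadjusted p 0.12), and without inhibitor replicate 3 it was -0.76 (unadjusted p 0.0054). The size of the NDRG1 difference thus depended on which array was included, while its sign did not.

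BNIP3, a receptor for the removal of mitochondria, was at 3.68, 3.63 and 3.59 in control replicates 1 to 3 and at 3.47, 3.59 and 3.27 in inhibitor replicates 1 to 3. The groups touched at 3.59, and the difference was -0.19 (SE 0.10, 95% interval -0.43 to 0.046). These values are below the lower quartile of all probe sets on each array, 3.83 to 3.89. The mean hides an uneven set of probe sets: 1 of 10 averaged 7.83 over all arrays, the next 4.68, and 6 averaged below 4. The bright probe set was at 7.96, 7.58 and 7.74 in control replicates 1 to 3 and at 7.53, 8.23 and 7.95 in inhibitor replicates 1 to 3, a difference of 0.14 with overlapping groups. Without 1 probe set whose identifier lies apart from the other 9, a choice made after seeing the data, the gene difference was -0.21.

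PDK1, the kinase that restrains pyruvate dehydrogenase and so the entry of pyruvate into the citric acid cycle, was at 6.64, 6.73 and 7.004 in control replicates 1 to 3 and at 6.65, 6.60 and 6.96 in inhibitor replicates 1 to 3. The third replicate was the highest in both groups, and the groups overlapped almost fully. The difference was -0.055 (SE 0.13, 95% interval -0.36 to 0.25). It was -0.13 without control replicate 1 and 0.050 without control replicate 3. Of its 17 probe sets, 12 were negative, but the largest difference was positive. That probe set went from 3.53, 3.15 and 3.45 in control replicates 1 to 3 to 4.85, 4.09 and 4.99 in inhibitor replicates 1 to 3, a difference of 1.27 (adjusted p 0.76 over all probe sets in limma). It is dim, and the other probe sets of PDK1 lay between -0.44 and 0.34.

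P4HA1, the catalytic subunit of the enzyme that hydroxylates collagen prolines, was at 8.83, 8.53 and 8.85 in control replicates 1 to 3 and at 8.39, 8.48 and 8.72 in inhibitor replicates 1 to 3. Inhibitor replicates 1 and 2 lay below all controls and inhibitor replicate 3 within them, as for NDRG1. The difference was -0.21 (SE 0.13, 95% interval -0.49 to 0.078, unadjusted p 0.13, adjusted p 0.79 in limma). Of its 16 probe sets, 15 were negative, and the most negative, -0.90, went from 7.55, 7.45 and 8.09 to 7.06, 6.65 and 6.69. Leaving out control replicate 2 gave -0.31 for the gene and leaving out inhibitor replicate 1 gave -0.14.

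ANKRD37, an ankyrin repeat gene strongly induced through HIF-1, was at 6.28, 6.09 and 6.10 in control replicates 1 to 3 and at 6.08, 6.06 and 6.45 in inhibitor replicates 1 to 3. Inhibitor replicate 3 was the highest array, and the others of its group were the lowest. The difference was 0.042 (SE 0.13, 95% interval -0.24 to 0.33), on 3 probe sets. It was 0.11 without control replicate 1, and turned to -0.084 without inhibitor replicate 3 and to -0.26 with the median of the probe sets.

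**Figure D2:**
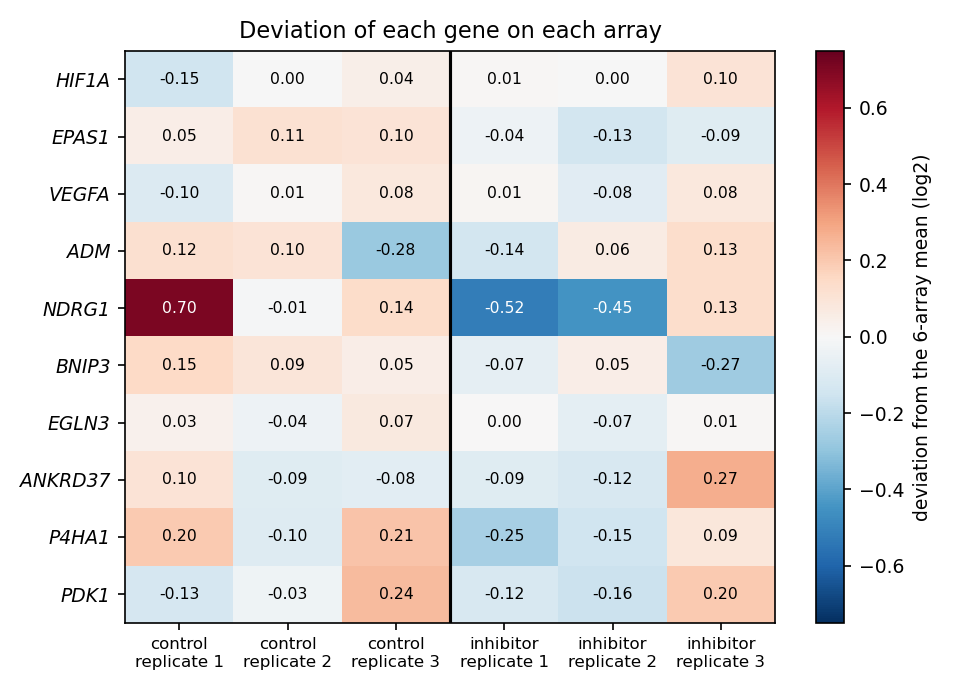
Deviation of each gene (rows) on each array (columns) from its mean over the 6 arrays, in log2 units, with red above and blue below the mean. NDRG1 shows the widest spread, from 0.70 in control replicate 1 to -0.52 in inhibitor replicate 1.

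Inhibitor replicate 3 stood apart from the other inhibitor arrays for several members. It was the highest of its group for 8 of 10 members, against 38.8% of all genes. Its distance above the mean of inhibitor replicates 1 and 2 was 0.62 for NDRG1, 0.38 for ANKRD37, 0.34 for PDK1 and 0.29 for P4HA1, each as large as or larger than the difference of that gene between the groups. BNIP3 went the other way, at -0.26. For EPAS1 this distance was -0.0012.

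Control replicate 1 did not have 1 direction over the members. It was the highest control for 4 of 10 (NDRG1, ANKRD37, ADM and BNIP3; background 33.9%) and the lowest for 4 (HIF1A, EPAS1, VEGFA and PDK1; background 42.4%). Its value minus the mean of control replicates 2 and 3 was 0.64 for NDRG1, 0.21 for ADM and 0.19 for ANKRD37, against -0.23 for PDK1, -0.17 for HIF1A and -0.15 for VEGFA. Without it, 9 of 10 differences kept their sign (background 81.9%), with VEGFA the exception. The count of members at an unadjusted p under 0.05 went from 1 to 0 (background 6.74%), and the median difference from -0.049 to -0.087.

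**Figure D3:**
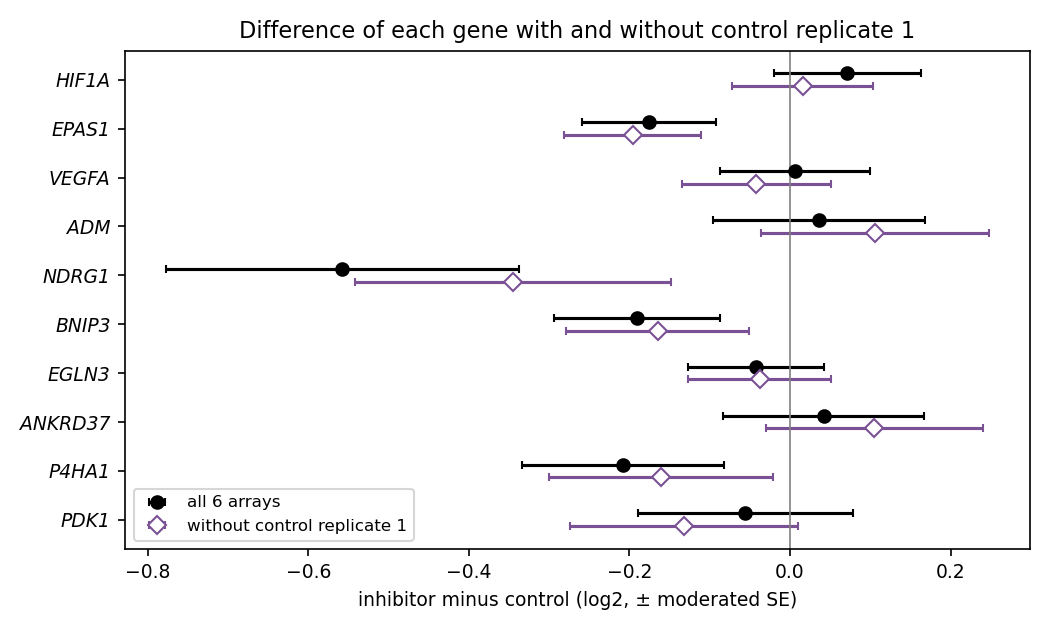
Inhibitor minus control for each gene (log2, ± moderated SE) with all 6 arrays (black) and without control replicate 1 (open diamonds). NDRG1 moves from -0.56 to -0.35, EPAS1 stays at -0.18 and -0.20, and VEGFA crosses 0.

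At the level of single probe sets, 87 of the 132 were negative, 42 positive and 3 at 0. Limma called 0 at an adjusted p under 0.05 (background 0.0%), with 0.76 the smallest. Without adjustment, 7 were lower at p under 0.05 (background 3.09%) and 2 higher (background 3.11%). All inhibitor arrays lay below all controls for 14 (background 6.32%) and above them for 7 (background 5.89%). Probe sets of 1 gene were read on the same arrays and are not independent. No share of negative signs over all 224320 probe sets is given, so the sign counts stand without a background. NDRG1, EPAS1 and P4HA1 together contributed most of the negative member probe sets, with 18, 16 and 15.

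**Figure D4:**
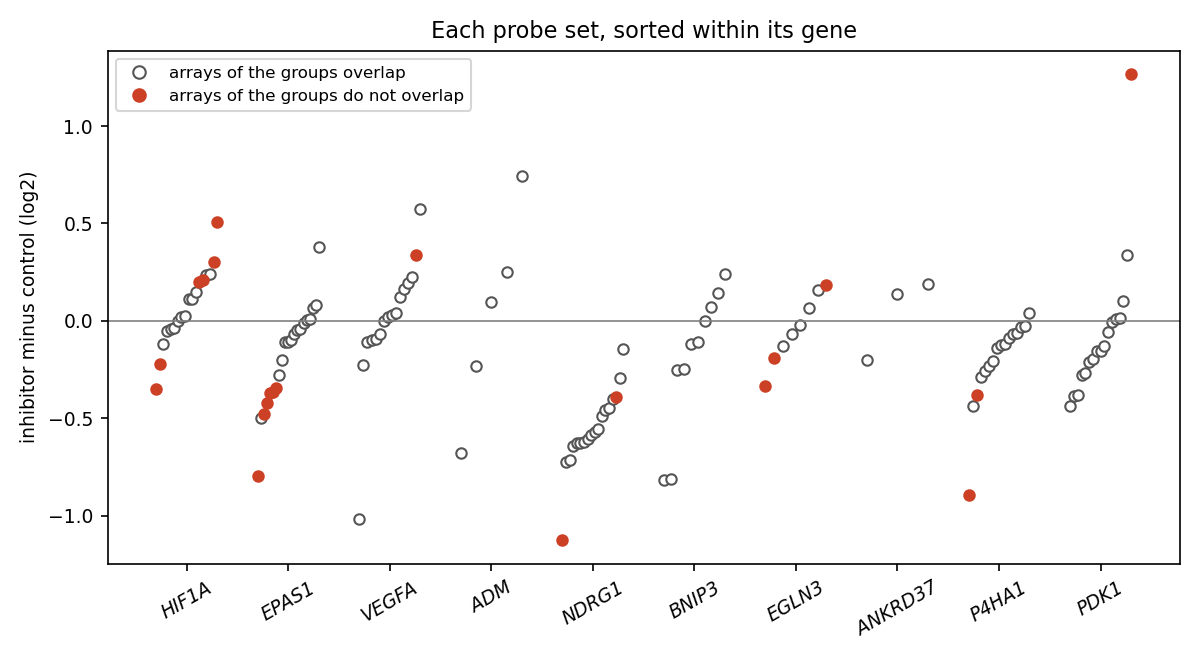
Inhibitor minus control (log2) of each of the 132 probe sets, sorted within its gene, with filled red points where the arrays of the groups did not overlap. All 18 probe sets of NDRG1 lie below 0, HIF1A has filled points on both sides, and PDK1 has a single probe set at 1.27.

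The wider oxygen-sensing machinery was read from 19 genes. None was called, 8 were negative and 11 positive, and the median difference was 0.010 against 0.0021 for all genes. Without control replicate 1, 12 were negative, the median was -0.020 against -0.0090 for all genes, and 13 of 19 kept their sign. With all 6 arrays, those of the inhibitor lay below all controls for 2 genes (background 7.68%) and above them for 1 (background 5.19%). Limma gave 1 gene higher at an unadjusted p under 0.05 (background 2.95%) and 0 lower (background 3.16%). That gene was ARNT2, a partner of HIF alpha related to ARNT. It was at 4.09, 4.05 and 3.94 in control replicates 1 to 3 and at 4.37, 4.28 and 4.17 in inhibitor replicates 1 to 3, a difference of 0.25 (SE 0.094, adjusted p 0.79), which turned to -0.62 with its brightest probe set. ARNT, the obligate partner itself, had the opposite sign: all inhibitor arrays lay below all controls and the difference was -0.14 (SE 0.086). OS9, a lectin of the endoplasmic reticulum reported to bind HIF1A, had -0.18 (SE 0.099), and CUL2, the scaffold of the VHL ubiquitin ligase, had 0.17 (SE 0.10). These differences were -0.0996 and 0.10 without control replicate 1, and taking the median over probe sets gave -0.033 for OS9. The hydroxylases EGLN1 and EGLN2 and VHL, named after their values were seen, had differences of 0.090, 0.077 and -0.078.

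A further 33 hypoxia-induced genes outside glycolysis were read. None was called, 22 were negative and 11 positive, and the median difference was -0.028. The count of negative genes was 19, and the median -0.020, without control replicate 1. At an unadjusted p under 0.05 in limma, 2 were lower, MXI1 and HMOX1 (background 3.16%), and 0 higher (background 2.95%). Without control replicate 1, 2 were lower, MXI1 and IGFBP3 (background 3.39%), and 0 higher. IGFBP3 was named after its value was seen. With all 6 arrays, those of the inhibitor lay below all controls for 4 genes (background 7.68%) and above them for 1 (background 5.19%). MXI1, an antagonist of MYC, was at 7.28, 7.32 and 7.28 in control replicates 1 to 3 and at 6.91, 6.84 and 7.13 in inhibitor replicates 1 to 3. The groups did not overlap, and the difference was -0.33 (SE 0.10, adjusted p 0.79). HMOX1, the haem-degrading oxygenase, had -0.29 (SE 0.11) with all 8 probe sets negative. Its difference was -0.15 without the dimmest 30% of probe sets and -0.16 with the median of the probe sets. On the positive side, the secreted glycoprotein gene STC2 had 0.19 (SE 0.094) and WSB1, a substrate adaptor of a ubiquitin ligase, 0.21 (SE 0.14). The WSB1 difference was 0.062 without control replicate 1 and 0.33 without control replicate 3.

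Of 20 glycolytic genes that HIF-1 induces, 17 were negative, with a median of -0.094, and without control replicate 1 16 were negative, with a median of -0.075. All inhibitor arrays lay below all controls for 8 of them, against 7.68% of all genes, and 0 were called. PFKFB3 and PGAM1 had the smallest p, with -0.24 and -0.32, while ENO2 and GAPDH had 0.034 and 0.031, and both turned sign in some settings. Of the 20, 5 were lower at an unadjusted p under 0.05 (background 3.16%), and 3 without control replicate 1 (background 3.39%). The lists were set up with earlier results of these data known, so their counts describe these arrays.

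**Figure D5:**
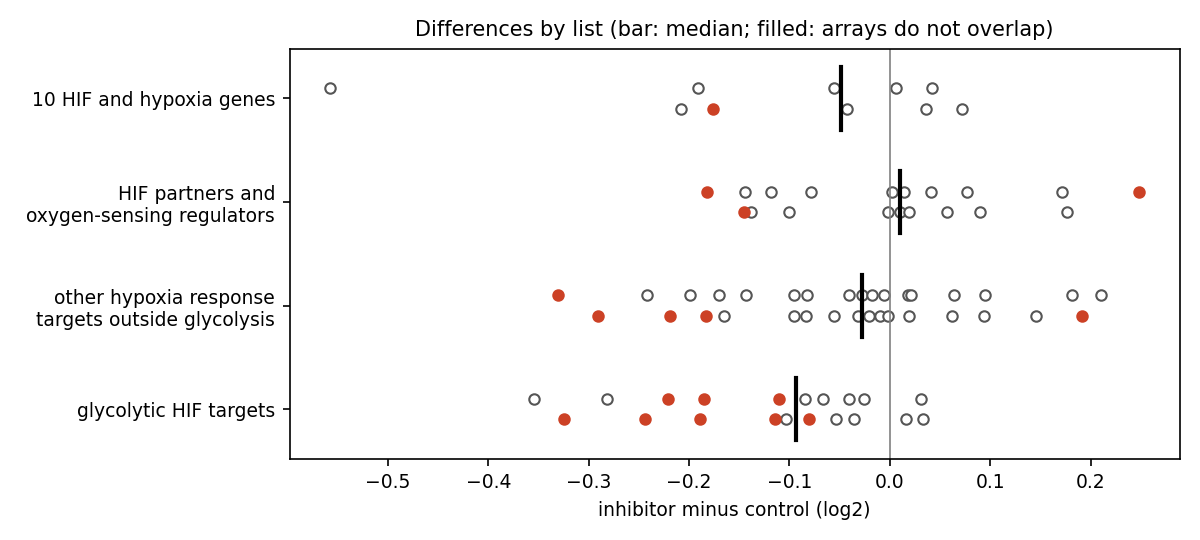
Inhibitor minus control (log2) for the 10 genes and the 3 further lists, 1 point per gene, with black bars at the medians and filled points where the arrays of the groups did not overlap. The medians are -0.049, 0.010, -0.028 and -0.094 from top to bottom, and NDRG1 is the leftmost point.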

How the data were processed

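Gene expression was measured on 6 arrays (Affymetrix Human Gene 1.0 ST), 3 per group, with groups and replicate numbers taken from the sample titles. Per the submitters' processing notes, the authors used RMA, as well as Affymetrix Expression Console and the Transcriptome Analysis Console; versions and settings are not given in the sources used here. The deposited values are log2 probe set intensities, rounded by the authors, with column medians of 6.02 to 6.07. RMA brings the arrays to a common distribution, which hides any shift common to most genes. The number of arrays limits the precision, and detection calls were not used here.

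Of 257430 probe sets, 224320 carried 1 gene symbol in the platform annotation. Outdated symbols were updated through an unambiguous RefSeq synonym. A gene value was the mean log2 of its probe sets, which gave 18656 genes with no filter on dim values. Groups were compared over all genes with limma 3.58.1 in R 4.3.3 (lmFit, eBayes, no block), with Benjamini-Hochberg adjustment and a threshold of 0.05. The script was tested on simulated data. Single probe sets were fitted in the same way.

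The members and the lists were chosen with earlier results of these data known. Besides the members, up to 2 genes with a positive and 2 with a negative difference, those with the smallest p, were named per list, and the brightest gene of each marker list. Alternatives covered scaling, filters, the combination of probe sets, variance estimates, array weights, a replicate block and leaving out each array. The labels call the samples biological replicates and do not say whether same-numbered ones were handled together.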

Additional observations from a re-analysis of the deposited data

How the results depend on the processing

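Limma called 0 members under each setting run, and 0 genes in all except 1 gene, RGPD4, without control replicate 3, so leaving out arrays gave 0 to 1. The replicate block gave 0 called genes and 0 called members, so it changed no call. In this balanced layout the block cannot change a difference. The NDRG1 difference was thus -0.56 again, with an unadjusted p of 0.044 in limma. Deviations from the group means correlated across genes at -0.032, -0.040 and 0.17 between arrays of the same number. With 3 arrays per group, these values cannot tell whether same-numbered arrays were handled together. Single probe sets of the members gave 0 calls in each setting, where the alternatives were chosen after seeing the data. The median difference of the members was -0.094 to -0.0020 when 1 array was left out, the latter without inhibitor replicate 2, and 5 to 9 members were then negative. At an unadjusted p under 0.05 there were 0 to 2 members over the settings. Of 30 named genes, 15 did not reverse their sign in any setting, among them NDRG1 (-0.76 to -0.35) and P4HA1 (-0.31 to -0.14). EPAS1 was counted with them, though it was at 0.0000 with the median of probe sets. The variance estimates, the replicate block and the filters on dim genes cannot change a difference. The median of probe sets turned HIF1A to -0.042, ADM to -0.0033 and ANKRD37 to -0.26. The brightest probe set turned ADM to -0.23, BNIP3 to 0.14, EGLN3 to 0.18, ARNT2 to -0.62, GAPDH to -0.070, NRP2 to 0.21 and CALCRL to 0.51. Without the dimmest 30% of probe sets, ADM had -0.018 and STC2 -0.026. Quantile normalization turned ENO2 to -0.0055, and array weights turned VEGFA to -0.017. Leaving out 1 array gave ranges across 0 for VEGFA (-0.042 to 0.049), ADM (-0.095 to 0.11), PDK1 (-0.17 to 0.050), ANKRD37 (-0.084 to 0.11), GAPDH (-0.014 to 0.068), RAMP1 (-0.0039 to 0.13) and RAMP2 (-0.0014 to 0.25). The cause was not tested. BNIP3 was not among the genes left without the dimmest 30%, nor BNIP3 and ADM among those left without the dimmest 50%.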

Other observations

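The paralogs of the members gave a mixed picture. Of 14 measured, 8 were negative and 6 positive, with a median difference of -0.012. Limma called 0, with 1 lower (background 3.16%) and 0 higher (background 2.95%) at an unadjusted p under 0.05. Without control replicate 1, 7 were negative and the median was -0.0088. NDRG2, a relative of NDRG1, was at 6.41, 6.51 and 6.50 on the log2 scale in control replicates 1 to 3 and at 6.23, 6.29 and 6.33 in inhibitor replicates 1 to 3. The groups did not overlap, and the difference was -0.19 (SE 0.085, unadjusted p 0.050, adjusted p 0.79 in limma). VEGFB, a relative of VEGFA, had -0.11 (SE 0.084), also with all inhibitor arrays below all controls. P4HA3, a further collagen prolyl hydroxylase subunit, had 0.19 (SE 0.11), and ADM2, a relative of adrenomedullin, 0.15 (SE 0.11), or 0.23 without control replicate 1.

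Genes for receptors of the VEGF family, and CALCRL with its accessory genes, were also read. Of 9, 7 were negative and 2 positive, with a median of -0.11. Limma called 0 of these too, with 1 lower (background 3.16%) and 0 higher (background 2.95%) at an unadjusted p under 0.05. Without control replicate 1 the median was -0.061 and 0 were lower at that threshold. NRP2, a co-receptor for VEGF proteins, was at 4.24, 4.14 and 4.28 in control replicates 1 to 3 and at 3.84, 3.999 and 4.11 in inhibitor replicates 1 to 3. All inhibitor arrays lay below all controls (background 7.68%), and the difference was -0.24 (SE 0.10, unadjusted p 0.042 in limma). It was -0.23 (unadjusted p 0.077) without control replicate 1. Both size and sign of the NRP2 difference depended on how its probe sets were used. Their median gave -0.445 (unadjusted p 0.0058 in limma), but the brightest alone gave 0.21. Once the dimmest 30% were left out, -0.038 remained (unadjusted p 0.75 in limma). The adrenomedullin receptor gene CALCRL had -0.15 (SE 0.11). Of its accessory genes, RAMP1 and RAMP2 had 0.076 (SE 0.098) and 0.11 (SE 0.15). RAMP3, named after its value was seen, had -0.16 (SE 0.12). Without control replicate 1, CALCRL had -0.092, RAMP2 0.25 and RAMP3 -0.061. KDR (-0.11) and FLT1 (-0.0030), named after their values were seen, also lay below the lower quartile of all probe sets on each array.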
